A study of Homo sapiens with 18 samples.

Results

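The comparison described here sets loss of FOSL1 against loss of LSD1 in a drug-resistant melanoma line, without passing through a control group. RNA was sequenced from A375, an established human melanoma line driven by mutant BRAF. The prefix R is taken to mean cells resistant to BRAF and MEK inhibitors. R_shFosL1 (2 libraries) carried a hairpin against FOSL1, R_shLSD1 (2 libraries) a hairpin against LSD1, the protein of the gene KDM1A, and R_shCtrl (2 libraries) a control hairpin. All 3 were delivered by lentivirus to R cells grown in DMEM with serum. The labels give neither the hairpin sequences, nor how many were used per gene, nor whether these cells were kept in drug. The 4 libraries of R_shFosL1 and R_shLSD1 are those compared, out of 18 in the series. Of 60595 genes listed, 14283 reached 1 FPKM (fragments per kilobase of transcript, scaled to the mapped fragments of the library) in at least 2 of the 4 libraries and were compared.

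LSD1 is a demethylase that works within the CoREST complex and removes methyl groups from lysine 4 of histone H3, a mark of active promoters and enhancers. FOSL1, also called FRA-1, is a FOS-family subunit of AP-1, the transcription factor that pairs FOS with JUN proteins and binds the sequence TGANTCA. In melanoma, AP-1 with FOSL1 is known for the invasive, dedifferentiated cell state and for genes of matrix breakdown and migration.

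The R_shFosL1 libraries were deposited in a table of their own, and R_shLSD1 shares its table with R_shCtrl. Table and hairpin therefore cannot be told apart, no test was run between R_shFosL1 and R_shLSD1, and their differences are a description. The same holds between R_shFosL1 and R_shCtrl, also where R_shFosL1 alone stands apart from the other groups. Over protein-coding genes that averaged at least 5 FPKM, R_shFosL1 libraries lay a median of 0.033 to 0.048 above R_shCtrl libraries in log2. A gene is called higher or lower in R_shFosL1 when the difference of mean log2(FPKM+1) was at least 1 and the libraries of the 2 groups did not overlap. Each such log2 difference is given ± the SD between libraries pooled over the 2 groups (n = 2 each). By this rule 716 genes were higher in R_shFosL1 than in R_shLSD1 (5.01% of those compared) and 695 were lower (4.87%). Among protein-coding genes 428 were higher and 542 lower. When the libraries were rescaled to equal sums over protein-coding genes, the split became 571 higher and 838 lower, and it was 575 and 804 with trends over GC content and length removed and 567 and 842 without mitochondrially encoded mRNAs. A difference of at least 2 was reached by 88 genes in each direction, while 64.5% of genes lay within 0.5 of each other and the median difference was 0.071.

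**Figure D1:**
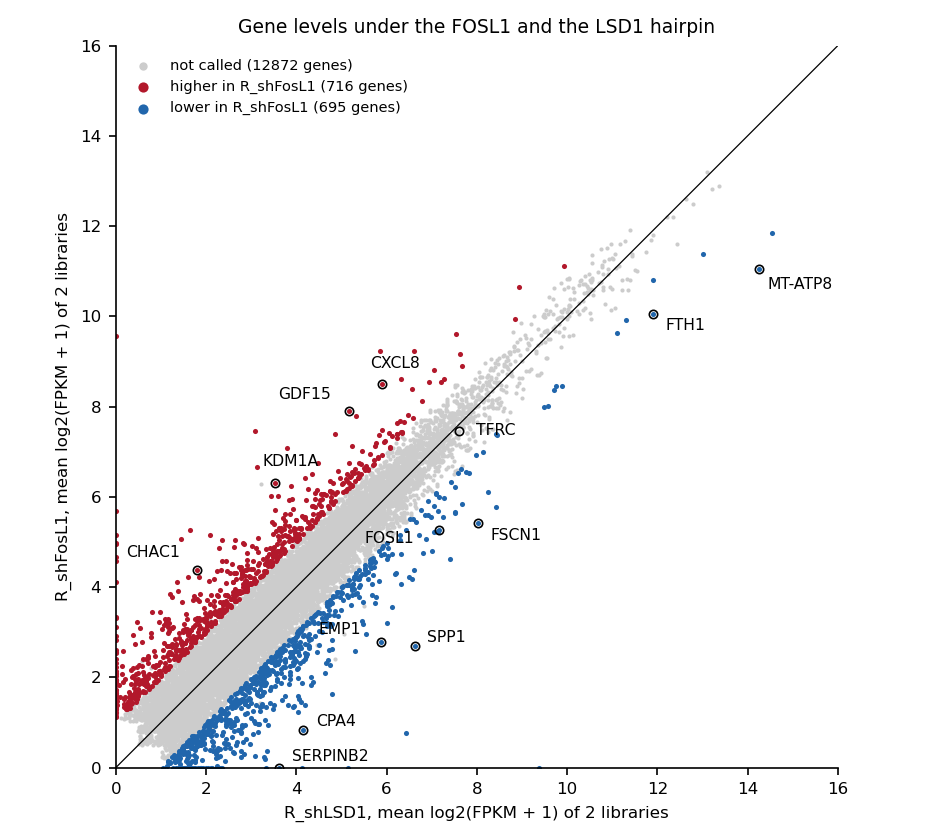
Mean log2(FPKM + 1) of the 2 R_shFosL1 libraries (vertical) against that of the 2 R_shLSD1 libraries (horizontal), one point per gene compared, with equality as the line. Called genes are coloured (716 higher and 695 lower in R_shFosL1), and circles name genes described in the text, among them both hairpin targets on opposite sides of the line.

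Where R_shCtrl lies was tested within its own table. limma compared R_shLSD1 with R_shCtrl over 14292 genes and called 1347 higher (9.42%) and 1772 lower (12.4%) at an adjusted p below 0.05. With quantile normalization the split turned to 1557 higher and 1514 lower. These calls rest on few libraries: 912 genes were called when R_shLSD1 replicate 1 was left out, 773 without its replicate 2, 159 without R_shCtrl replicate 2 and 0 without R_shCtrl replicate 1, where 4010 genes had an unadjusted p under 0.05. Of the 78 genes named here that passed, 51, 44, 24 and 0 passed in those 4 fits. The labels do not say that replicates are separate cultures, so these p-values may measure technical spread only. Both comparisons use the R_shLSD1 libraries, and a high value there moves both, so the values of each are set side by side and not counted as separate support. "Rose" and "fell" below are used only of R_shLSD1 relative to R_shCtrl, with limma's log2 change ± its standard error.

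Sums of the normalized values, which do not measure library size, ran from 691093 to 695830 FPKM in R_shFosL1, 703198 to 703225 in R_shLSD1 and 705988 to 727281 in R_shCtrl. Low values showed no clear steps of whole reads, so the depth behind these values is unknown. Over 9144 protein-coding genes that averaged at least 5 FPKM, the SD of the log2 difference was 0.25 between the R_shFosL1 libraries and 0.27 between the R_shLSD1 libraries, against 0.60 to 0.61 between libraries of the 2 groups. R_shFosL1 lay 0.49 from R_shCtrl on this scale and R_shLSD1 0.54 to 0.55. Mitochondrially encoded mRNAs made up 7.95% and 8.02% of the R_shFosL1 libraries, against 15.1% and 16.3% in R_shLSD1 and 12.8% and 13.7% in R_shCtrl. Of 10 melanocytic markers, SOX10, TYR, TYRP1 and S100B were listed at 0 in all 6 libraries, and only MITF and PRAME reached 1 FPKM in all 4 compared ones. Endothelial and erythroid marker sums stayed at or below 1.66 FPKM. Leukocyte marker sums were 69.7 to 76.6 FPKM in R_shFosL1, 82.9 to 87.9 in R_shLSD1 and 113 to 122 in R_shCtrl, nearly all of it CD68, with the defining marker PTPRC at or below 0.091 FPKM. Fibroblast marker sums were 30.2 to 30.6 FPKM in R_shFosL1, 32.2 to 40.6 in R_shLSD1 and 23.9 to 38.9 in R_shCtrl, with COL1A2 at 0 in all 6. Keratinocyte marker sums were 45.7 to 55.7 FPKM in R_shFosL1, 26.2 to 40.7 in R_shLSD1 and 30.6 to 41.3 in R_shCtrl, mostly KRT10, with KRT14 at 0 in all 6.

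Each target was lowest under its own hairpin. KDM1A (chromosome 1 from 23019443 to 23083689 on hg38) was at 78.5 and 78.1 FPKM in R_shFosL1, against 10.1 and 11.1 FPKM in R_shLSD1 and 73.3 and 76.5 FPKM in R_shCtrl. It was 7.37 times as high in R_shFosL1 as in R_shLSD1 (log2 difference 2.77 ± 0.064), and it fell in R_shLSD1 relative to R_shCtrl (-2.71 ± 0.10, adjusted p = 0.00093). FOSL1 (chromosome 11 from 65892049 to 65900573) was at 36.2 and 38.3 FPKM in R_shFosL1, against 144 and 142 FPKM in R_shLSD1 and 109 and 104 FPKM in R_shCtrl. The log2 difference was -1.91 ± 0.041, and FOSL1 rose in R_shLSD1 relative to R_shCtrl (0.42 ± 0.06, adjusted p = 0.01), so part of the gap lies on the LSD1 side. The targets are what the hairpins were made for and check the labels.

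Some genes stood apart from the control under both hairpins and were not called between them. TFRC, the transferrin receptor that brings iron into cells (chromosome 3 from 196027183 to 196082189), was at 175 and 174 FPKM in R_shFosL1, against 193 and 196 FPKM in R_shLSD1 and 85.2 and 90.1 FPKM in R_shCtrl. All 4 hairpin libraries lay above both control libraries, with a log2 difference of -0.16 ± 0.012 between the hairpins and a rise of 1.14 ± 0.06, adjusted p = 0.0013 in R_shLSD1. DUSP6, the ERK phosphatase that is itself induced by ERK signalling, was at 14 and 14 FPKM in R_shFosL1, against 12.9 and 8.64 FPKM in R_shLSD1 and 56.7 and 48.6 FPKM in R_shCtrl. All 4 hairpin libraries lay far below both control libraries, and the difference between the hairpins was 0.37 ± 0.27. PHLDA1, another ERK-induced gene, showed the same placement with 18.7 and 18 FPKM in R_shFosL1, against 17.9 and 16.8 FPKM in R_shLSD1 and 54.8 and 54.5 FPKM in R_shCtrl. EGFR, a growth factor receptor, was at 11.2 and 11.7 FPKM in R_shFosL1, against 10.8 and 12.4 FPKM in R_shLSD1 and 12.1 and 10.8 FPKM in R_shCtrl, and the libraries of the 3 groups overlapped.

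**Figure D2:**
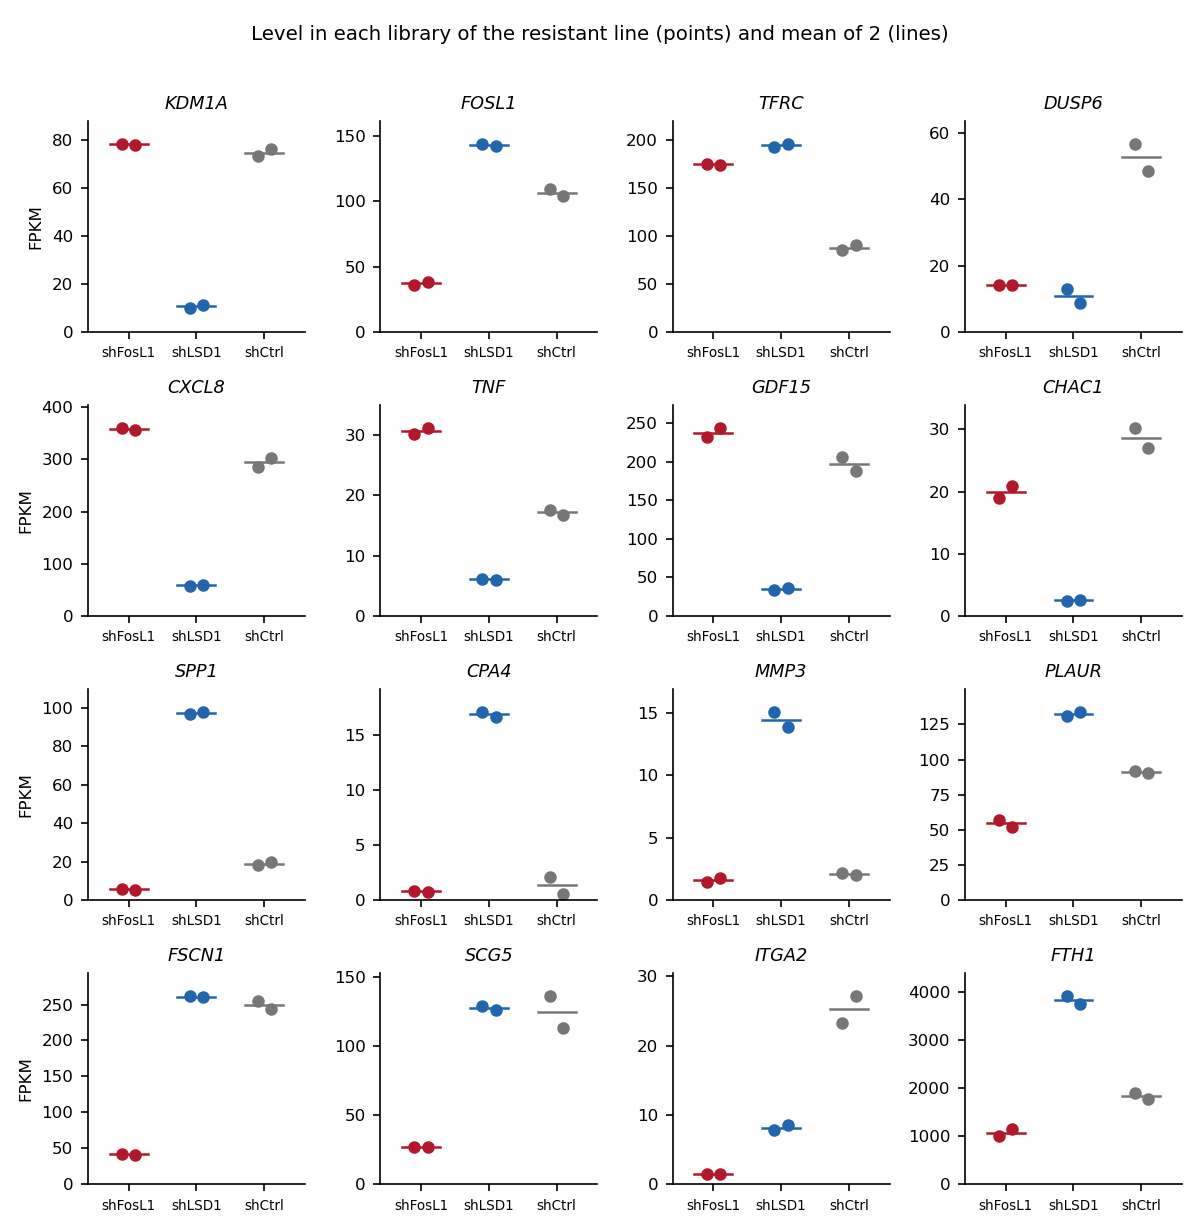
FPKM in each of the 6 libraries (points) with the mean of the 2 libraries of a group (lines), for 16 genes, each on its own linear axis from 0. TFRC and DUSP6 separate both hairpins from R_shCtrl, CXCL8, TNF, GDF15 and CHAC1 are lowest in R_shLSD1, and FSCN1 and SCG5 are lowest in R_shFosL1.

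Of the genes of invasion and growth factor signalling linked to AP-1, a part was lower under the FOSL1 hairpin. Of 26 listed, 21 were compared, and 7 were lower in R_shFosL1 than in R_shLSD1 and 0 higher, against 4.87% and 5.01% of all genes. The median difference was -0.68 against 0.071 over all genes. A gene can pass the filter through its level in 1 group alone. With every gene above 0 in any library kept, the median was -0.48 over 26 members and 0.018 over all genes. In bulk libraries a change in the share of cells that express a gene and a change in RNA per cell cannot be told apart. The stromelysin MMP3 was at 1.43 and 1.73 FPKM in R_shFosL1, against 15.1 and 13.9 FPKM in R_shLSD1 and 2.13 and 2.03 FPKM in R_shCtrl. The collagenase MMP1 was at 0.371 and 0.224 FPKM in R_shFosL1, against 5.52 and 6.2 FPKM in R_shLSD1 and 0.687 and 1.24 FPKM in R_shCtrl. In both genes the R_shLSD1 libraries were highest, the R_shCtrl libraries lay between and the R_shFosL1 libraries were lowest, with no overlap. They rose in R_shLSD1 relative to R_shCtrl (MMP3 2.33 ± 0.16, adjusted p = 0.0023 and MMP1 1.82 ± 0.25, adjusted p = 0.0092).

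In ITGA2, NT5E, ITGA6 and PLAUR of the invasion list R_shLSD1 lay at or below the control, or only moderately above it. R_shFosL1 was again lowest in these genes. The collagen receptor chain ITGA2 was at 1.36 and 1.38 FPKM in R_shFosL1, against 7.79 and 8.46 FPKM in R_shLSD1 and 23.3 and 27.2 FPKM in R_shCtrl. Here the 3 groups stepped apart in the order R_shFosL1, R_shLSD1 and R_shCtrl, with no overlap, and ITGA2 fell in R_shLSD1 as well (-1.52 ± 0.14, adjusted p = 0.0035). The ecto-nucleotidase NT5E had the same order, at 4.72 and 5.97 FPKM in R_shFosL1, against 19.3 and 17.8 FPKM in R_shLSD1 and 29.4 and 29.3 FPKM in R_shCtrl. ITGA6, a laminin receptor chain, was at 17.5 and 17 FPKM in R_shFosL1, against 47.1 and 47.7 FPKM in R_shLSD1 and 51.3 and 47 FPKM in R_shCtrl, so the R_shLSD1 and R_shCtrl libraries overlapped and R_shFosL1 lay apart. PLAUR, the urokinase receptor (chromosome 19 from 43646095 to 43670547), was at 57.1 and 52 FPKM in R_shFosL1, against 131 and 134 FPKM in R_shLSD1 and 92 and 90.7 FPKM in R_shCtrl, with a difference of -1.27 ± 0.068. The list's members just short of the threshold were the chromatin protein HMGA2 (-0.99) and the fibronectin receptor chain ITGA5 (-0.84). AXL, a receptor tyrosine kinase of the dedifferentiated state, differed by -0.49 ± 0.061. Its R_shFosL1 libraries (43.3 and 47.2 FPKM) overlapped those of R_shCtrl (46.8 and 47.5 FPKM), and R_shLSD1 was highest (63.2 and 64.4 FPKM). In R_shLSD1 relative to R_shCtrl 6 of 22 list members rose and 10 fell, against 9.42% and 12.4% of all genes. The list thus has no single direction on that side.

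A part of the adhesion and matrix genes was lower in R_shFosL1 too. Of 20 mesenchymal and matrix genes compared, 7 were lower in R_shFosL1 and 0 higher (median -0.55). Of 19 integrin and laminin chains 5 were lower and 0 higher (median -0.74), against 4.87% and 5.01% of all genes. With every gene above 0 in any library kept, the medians were -0.17 over 26 matrix genes and -0.56 over 23 chains. Without R_shLSD1 replicate 2 the integrin and laminin count was 3, and without R_shLSD1 replicate 1 a matrix gene was higher. Tenascin TNC was at 17.1 and 14.8 FPKM in R_shFosL1, against 77.9 and 80.2 FPKM in R_shLSD1 and 28.8 and 29 FPKM in R_shCtrl. Fibronectin FN1 was at 257 and 251 FPKM in R_shFosL1, against 716 and 716 FPKM in R_shLSD1 and 469 and 474 FPKM in R_shCtrl, in the order R_shFosL1, R_shCtrl and R_shLSD1 with no overlap. SPARC, a matricellular collagen-binding protein, was at 351 and 346 FPKM in R_shFosL1, against 817 and 896 FPKM in R_shLSD1 and 285 and 304 FPKM in R_shCtrl. The proteoglycan lumican, LUM, was at 4.47 and 4.72 FPKM in R_shFosL1, against 20.5 and 14.8 FPKM in R_shLSD1 and 3.53 and 4.56 FPKM in R_shCtrl. For LUM the R_shFosL1 and R_shCtrl libraries overlapped, and for SPARC R_shFosL1 lay a little above R_shCtrl. Both rose in R_shLSD1 (SPARC 1.54 ± 0.066, adjusted p = 0.0011 and LUM 1.88 ± 0.21, adjusted p = 0.0059). ITGB3, the beta chain of the vitronectin receptor, was at 3.47 and 3.09 FPKM in R_shFosL1, against 24 and 23.7 FPKM in R_shLSD1 and 11.5 and 13.2 FPKM in R_shCtrl, below both other groups. ITGA2 and ITGA6 stand in both the integrin and the invasion list.

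Neurosecretory and neuronal genes, many of which the LSD1 partner REST is known to keep silent outside neurons, held calls in 1 direction. Of 30 listed, 13 were compared, and 6 were lower and 0 higher (median -0.75), against 4.87% and 5.01% of all genes. A member can pass the filter through its level in 1 group alone. With every gene above 0 in any library kept, the median was -0.22 over 23 members. VGF, a precursor of secreted neuropeptides, was at 2.08 and 1.9 FPKM in R_shFosL1, against 16.7 and 14.1 FPKM in R_shLSD1 and 2.69 and 2.04 FPKM in R_shCtrl. The R_shLSD1 libraries lay far above the other 4, and VGF rose there (2.29 ± 0.19, adjusted p = 0.003). SCG5, a secretogranin-family chaperone of prohormone convertase, was at 26.7 and 27 FPKM in R_shFosL1, against 129 and 126 FPKM in R_shLSD1 and 136 and 113 FPKM in R_shCtrl. Here R_shFosL1 lay apart as the low group, and the R_shLSD1 and R_shCtrl libraries, which share a table, overlapped. Hairpin and table cannot be told apart in such a placement. The neuronal tubulin TUBB3 was at 48.2 and 52.4 FPKM in R_shFosL1, against 141 and 139 FPKM in R_shLSD1 and 119 and 116 FPKM in R_shCtrl. The adhesion molecule L1CAM was at 21.1 and 25.2 FPKM in R_shFosL1, against 51.9 and 51.4 FPKM in R_shLSD1 and 31.7 and 32.1 FPKM in R_shCtrl. REST itself was at 11.4 and 9.89 FPKM in R_shFosL1, against 5.2 and 5.43 FPKM in R_shLSD1 and 9.32 and 10.9 FPKM in R_shCtrl, a difference of 0.88 ± 0.095, and fell in R_shLSD1 (-0.81 ± 0.16, adjusted p = 0.024). In R_shLSD1 relative to R_shCtrl 4 of 12 list members rose and 0 fell, against 9.42% and 12.4% of all genes.

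**Figure D3:**
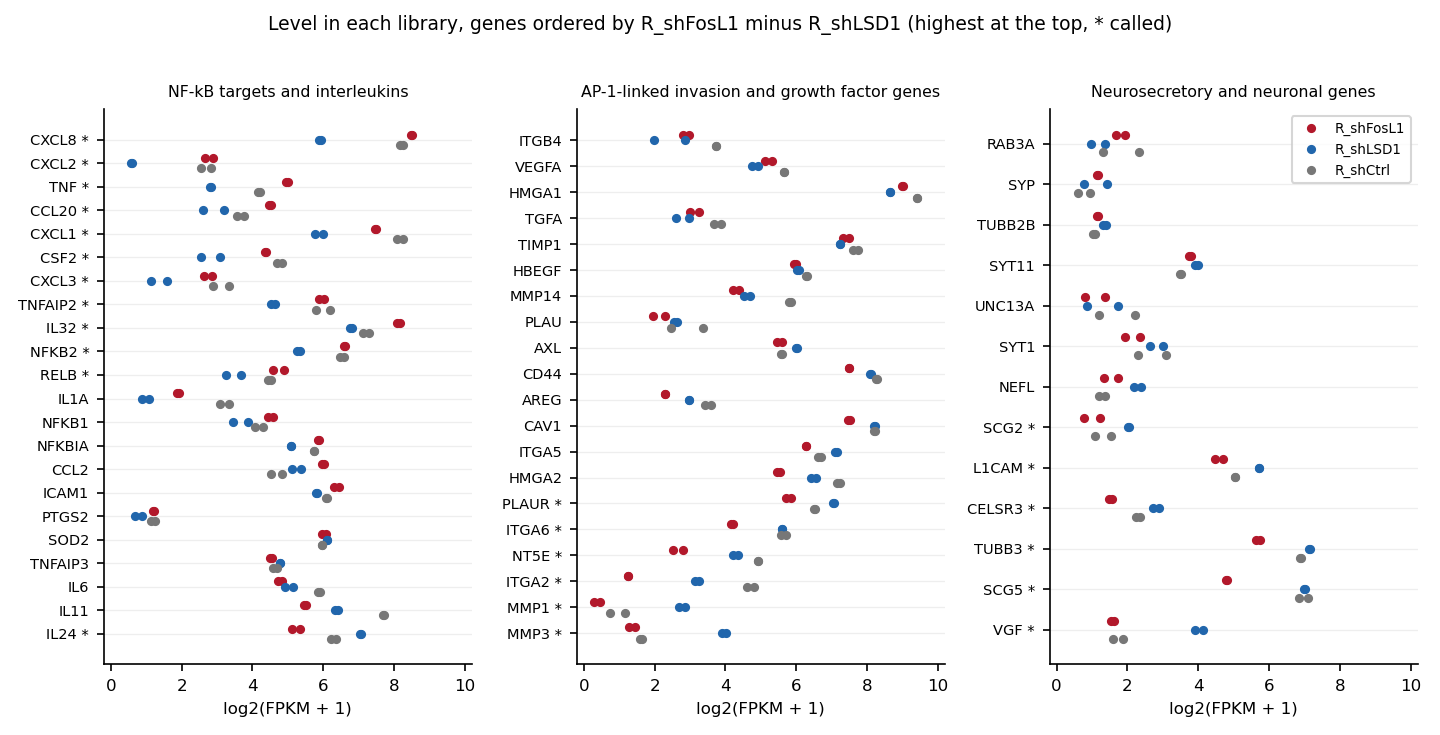
log2(FPKM + 1) in each library for members compared of 3 lists, R_shFosL1 above R_shLSD1 above R_shCtrl within a gene, with genes ordered by the difference between R_shFosL1 and R_shLSD1. An asterisk marks the called genes, which among those drawn are 11 higher and 1 lower for NF-kB targets, 6 lower for invasion genes, of which 1 more called member is not drawn, and 6 lower for neurosecretory genes.

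The widest gaps among protein-coding genes detected in all 4 libraries named further secreted and cytoskeletal genes on the low side of R_shFosL1. SPP1, which encodes the secreted matrix protein osteopontin, was at 5.72 and 5.2 FPKM in R_shFosL1, against 97.2 and 98 FPKM in R_shLSD1 and 18.1 and 19.8 FPKM in R_shCtrl, a difference of -3.93 ± 0.059. CPA4, a carboxypeptidase, was at 0.842 and 0.733 FPKM in R_shFosL1, against 17 and 16.6 FPKM in R_shLSD1 and 2.1 and 0.535 FPKM in R_shCtrl. The elastase MMP12 was at 3.57 and 1.13 FPKM in R_shFosL1, against 26.2 and 26.8 FPKM in R_shLSD1 and 1.02 and 0.5 FPKM in R_shCtrl. SPP1 lay below the control in R_shFosL1 and above it in R_shLSD1, while for CPA4 and MMP12 the R_shLSD1 libraries lay far above the other 4. FSCN1, the actin-bundling protein fascin found in invasive protrusions, was at 42.4 and 40.8 FPKM in R_shFosL1, against 262 and 260.3 FPKM in R_shLSD1 and 255 and 244 FPKM in R_shCtrl. The proteoglycan SPOCK1 was at 5.31 and 4.77 FPKM in R_shFosL1, against 36.3 and 41.3 FPKM in R_shLSD1 and 44.8 and 48.6 FPKM in R_shCtrl. The membrane protein EMP1 was at 7.83 and 4.39 FPKM in R_shFosL1, against 53.5 and 62.4 FPKM in R_shLSD1 and 29.6 and 30.6 FPKM in R_shCtrl. For FSCN1 and SPOCK1 both control libraries were far above R_shFosL1 as well, and limma did not call R_shLSD1 against R_shCtrl (adjusted p = 0.4 and 0.12). Since R_shLSD1 and R_shCtrl share a table, hairpin and table cannot be told apart in this placement. The plasma membrane protein EFR3B (-2.59) and the protease inhibitor WFDC3 (-2.79) were also in this group. SERPINB2, an inhibitor of plasminogen activators, was listed at 0 in both R_shFosL1 libraries, against 10.5 and 12.2 FPKM in R_shLSD1 and 5.75 and 6.53 FPKM in R_shCtrl. GARIN1B and the folate receptor FOLR3 were listed at 0 in R_shFosL1 too, against means of 4.11 and 3.02 FPKM in R_shLSD1.

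The AP-1 sequence was looked up in the promoters of these genes. RefSeq promoter windows (GRCh38.p14, 250 bases before to 50 after the start) were searched for TGANTCA, a palindrome that reads the same on both strands. It was found in 39 of 417 protein-coding genes lower in R_shFosL1 that had a window (9.35%), in 13 of 340 higher ones (3.82%) and in 427 of 9582 compared (4.46%). Over all 27305 windows of the table the share was 7.76%. Among genes with a difference of at least 2 the order was not kept, with 4 of 38 lower genes and 3 of 23 higher genes holding it. The invasion list had it in 2 of 15 members with a window and the NF-kB list in 3 of 20. A match of letters is a description and shows no binding. The 250 bases before the start of 5 genes lower in R_shFosL1 that hold the motif are shown for the variety of its placement. SERPINB2 and PLAUR are of the plasminogen system, F3 (tissue factor) is the initiator of coagulation, and CPA4 and EMP1 are from the widest gaps. The motif is in capitals, and the strand is that of the gene:
SERPINB2, chr18:63887455-63887704, plus strand: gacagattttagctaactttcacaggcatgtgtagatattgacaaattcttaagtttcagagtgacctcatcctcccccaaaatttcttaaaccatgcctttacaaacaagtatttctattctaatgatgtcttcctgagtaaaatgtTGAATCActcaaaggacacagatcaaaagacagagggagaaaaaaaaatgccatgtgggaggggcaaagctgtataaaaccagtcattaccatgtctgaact
CPA4, chr7:130292911-130293160, plus strand: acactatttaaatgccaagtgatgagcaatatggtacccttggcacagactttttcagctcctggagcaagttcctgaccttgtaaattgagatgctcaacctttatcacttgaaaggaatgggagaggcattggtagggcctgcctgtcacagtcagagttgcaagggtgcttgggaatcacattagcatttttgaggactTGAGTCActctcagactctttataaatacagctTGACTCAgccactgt
EMP1, chr12:13196476-13196725, plus strand: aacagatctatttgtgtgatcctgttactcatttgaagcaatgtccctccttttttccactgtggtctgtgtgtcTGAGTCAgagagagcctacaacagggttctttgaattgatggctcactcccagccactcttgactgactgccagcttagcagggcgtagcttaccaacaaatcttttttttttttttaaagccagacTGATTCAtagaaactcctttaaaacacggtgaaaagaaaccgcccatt
F3, chr1:94541760-94542009, minus strand: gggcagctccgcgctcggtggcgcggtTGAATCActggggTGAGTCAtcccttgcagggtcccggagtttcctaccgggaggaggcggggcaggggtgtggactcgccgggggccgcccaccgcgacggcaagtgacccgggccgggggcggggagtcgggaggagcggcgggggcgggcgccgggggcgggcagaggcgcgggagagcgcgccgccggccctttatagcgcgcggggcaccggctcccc
PLAUR, chr19:43670170-43670419, minus strand: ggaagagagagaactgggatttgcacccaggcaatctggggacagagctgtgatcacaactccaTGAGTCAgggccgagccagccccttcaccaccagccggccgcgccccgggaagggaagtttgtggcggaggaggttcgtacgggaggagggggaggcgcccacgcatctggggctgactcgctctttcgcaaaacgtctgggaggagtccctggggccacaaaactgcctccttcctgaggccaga

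In these windows the motif began 102 bases before the start in SERPINB2, 48 and 15 bases before it in CPA4, 175 and 48 in EMP1, 223 and 210 in F3 and 186 in PLAUR. F3 was at 51.9 and 47.9 FPKM in R_shFosL1, against 178 and 187 FPKM in R_shLSD1 and 64.8 and 68.8 FPKM in R_shCtrl, so its high values were those of R_shLSD1. Among the genes named by rule, 7 of 40 lower ones with a window held the motif and 4 of 32 higher ones did.

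On the other side stood NF-kB targets and interleukins, the genes of inflammatory signalling. Of 22 compared, 11 were higher and 1 lower, against 5.01% and 4.87% of all genes, with a median difference of 1.08. With every gene above 0 in any library kept, the median was 0.86 over 25 members. CXCL8, the neutrophil chemokine interleukin 8, was at 360.1 and 357 FPKM in R_shFosL1, against 57.8 and 59.9 FPKM in R_shLSD1 and 285 and 303 FPKM in R_shCtrl. The related chemokine CXCL1 was at 178 and 176 FPKM in R_shFosL1, against 63 and 53.8 FPKM in R_shLSD1 and 305 and 271 FPKM in R_shCtrl. CXCL2, of the same family, was at 5.32 and 6.45 FPKM in R_shFosL1, against 0.51 and 0.495 FPKM in R_shLSD1 and 6.07 and 4.85 FPKM in R_shCtrl. All 3 chemokines were lowest in both R_shLSD1 libraries. The cytokine TNF was at 30.1 and 31.1 FPKM in R_shFosL1, against 6.15 and 5.99 FPKM in R_shLSD1 and 17.6 and 16.7 FPKM in R_shCtrl. The NF-kB subunit gene NFKB2 was at 95.8 and 97.5 FPKM in R_shFosL1, against 37.6 and 39.7 FPKM in R_shLSD1 and 94.2 and 87.4 FPKM in R_shCtrl. In TNF and NFKB2 too the R_shLSD1 libraries were lowest, with no overlap with the other 4. R_shFosL1 lay above R_shCtrl for CXCL8 and TNF, only slightly above it for NFKB2 and below it for CXCL1. For CXCL2 the libraries of these groups overlapped, and the groups come from different tables. All 5 fell in R_shLSD1 relative to R_shCtrl, with CXCL8 at -2.30 ± 0.063, adjusted p = 0.00076, CXCL1 at -2.28 ± 0.10, adjusted p = 0.0011, CXCL2 at -2.10 ± 0.23, adjusted p = 0.0056, TNF at -1.36 ± 0.13, adjusted p = 0.0041 and NFKB2 at -1.21 ± 0.08, adjusted p = 0.002.

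Across the NF-kB list 17 of 24 members fell in R_shLSD1 and 1 rose (median -1.11), against 12.4% and 9.42% of all genes. The list's median difference of R_shFosL1 from R_shCtrl was 0.074. The member that was lower in R_shFosL1 and rose in R_shLSD1 was IL24, at 34 and 39.2 FPKM in R_shFosL1, against 131 and 134 FPKM in R_shLSD1 and 74.2 and 81.5 FPKM in R_shCtrl. IL11 and IL6, cytokines that signal through gp130, were not called between the hairpins. IL11 was at 43.3 and 44.4 FPKM in R_shFosL1, against 78.8 and 84.4 FPKM in R_shLSD1 and 205 and 209 FPKM in R_shCtrl. IL6 was at 27.7 and 25.3 FPKM in R_shFosL1, against 29.2 and 34.6 FPKM in R_shLSD1 and 57.3 and 58.8 FPKM in R_shCtrl, so both hairpin groups lay below the control and the R_shFosL1 libraries were lowest. The lipocalin LCN2, which binds iron-carrying siderophores and is outside this list, was at 7.09 and 11.8 FPKM in R_shFosL1 and listed at 0 in both R_shLSD1 libraries, with 0.2 and 0 FPKM in R_shCtrl. The promoter of CXCL8 holds the same TGANTCA letters 137 bases before the start, and it is shown as a counterexample in which the gene was not lower in R_shFosL1:
CXCL8, chr4:73740319-73740568, plus strand: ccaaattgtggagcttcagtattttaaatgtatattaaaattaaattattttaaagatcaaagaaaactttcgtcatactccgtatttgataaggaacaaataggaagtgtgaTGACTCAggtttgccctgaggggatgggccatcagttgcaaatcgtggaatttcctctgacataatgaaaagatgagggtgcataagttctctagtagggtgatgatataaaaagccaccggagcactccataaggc

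Further single genes were higher in R_shFosL1, and 3 of those described next (GDF15, EI24 and SSB) were among the widest gaps. GDF15, a stress cytokine of the TGF-beta family, was at 232 and 244 FPKM in R_shFosL1, against 33.3 and 36.6 FPKM in R_shLSD1 and 206 and 189 FPKM in R_shCtrl, a difference of 2.74 ± 0.075. MDM2, a ubiquitin ligase, was at 37.5 and 30.9 FPKM in R_shFosL1, against 13.5 and 12.3 FPKM in R_shLSD1 and 33.6 and 35.5 FPKM in R_shCtrl. The growth arrest gene GADD45A was at 102 and 109 FPKM in R_shFosL1, against 41.8 and 42.6 FPKM in R_shLSD1 and 62.8 and 61.8 FPKM in R_shCtrl. R_shFosL1 lay above the control for GDF15 and GADD45A and overlapped it for MDM2. EI24, a membrane protein, was at 166 and 167 FPKM in R_shFosL1, against 29.9 and 26.1 FPKM in R_shLSD1 and 150.2 and 149 FPKM in R_shCtrl. The RNA-binding La protein SSB was at 60.5 and 68.4 FPKM in R_shFosL1, against 10.5 and 9.11 FPKM in R_shLSD1 and 53.7 and 49.5 FPKM in R_shCtrl. In all 5 of these genes the R_shLSD1 libraries were lowest, with no overlap with the other 4.

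Of 21 genes of the ATF4 and amino acid stress response, 3 were higher in R_shFosL1 and 1 lower, with a median of 0.21. Over all genes 5.01% were higher and 4.87% lower. CHAC1, which degrades glutathione, was at 18.9 and 20.9 FPKM in R_shFosL1, against 2.34 and 2.62 FPKM in R_shLSD1 and 30.2 and 27 FPKM in R_shCtrl. DDIT3, the stress transcription factor CHOP, was at 56.4 and 46.5 FPKM in R_shFosL1, against 11.3 and 9.94 FPKM in R_shLSD1 and 58.2 and 45.3 FPKM in R_shCtrl. The asparagine synthetase ASNS was at 164 and 168 FPKM in R_shFosL1, against 70.8 and 78.5 FPKM in R_shLSD1 and 154 and 138 FPKM in R_shCtrl. The R_shLSD1 libraries were lowest in all 3, and 15 of the 21 fell and 3 rose there, against 12.4% and 9.42% of all genes. ATF4 mRNA was at 275 and 289.9 FPKM in R_shFosL1, against 256 and 246 FPKM in R_shLSD1 and 441 and 414 FPKM in R_shCtrl, so here both hairpin groups were below the control and the difference between them was 0.17 ± 0.047. CTH, which makes cysteine, went the other way, at 11.9 and 11.2 FPKM in R_shFosL1, against 28.1 and 25.1 FPKM in R_shLSD1 and 25 and 22.5 FPKM in R_shCtrl.

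**Figure D4:**
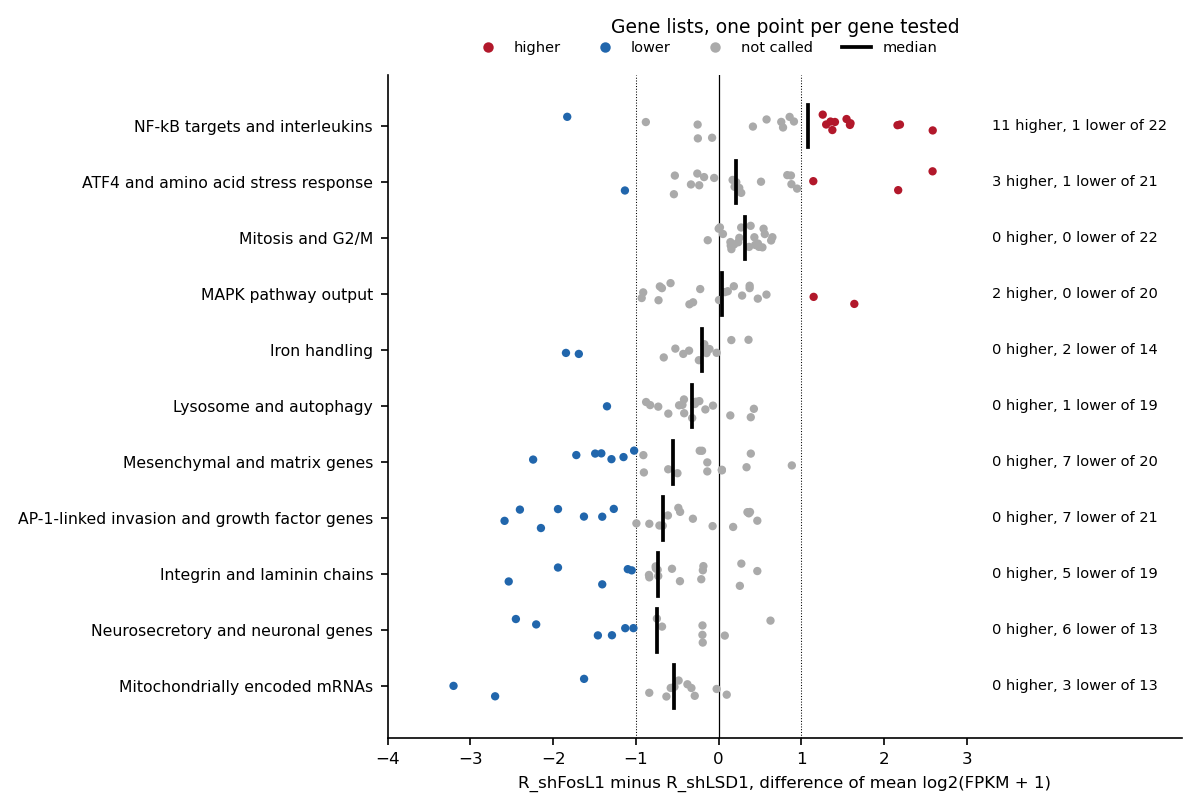
Difference of mean log2(FPKM + 1) between R_shFosL1 and R_shLSD1 for each gene compared in 11 lists (points), with the list's median (bars), and dotted lines at 1 and -1. NF-kB targets lie furthest to the right (median 1.08), and neurosecretory genes (median -0.75) and integrin and laminin chains (median -0.74) furthest to the left. The median is 0.071 over all genes. With every gene above 0 in any library kept, these list medians were 0.86, -0.22 and -0.56.

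Most AP-1 subunits and LSD1 partners were not called between the hairpins, as with all genes, of which 5.01% were higher and 4.87% lower. Of 13 AP-1 subunits compared, ATF3 and JUNB were higher in R_shFosL1 and FOSL1 was lower. ATF3, a stress-induced subunit, was at 47.7 and 48.7 FPKM in R_shFosL1, against 19 and 20.1 FPKM in R_shLSD1 and 23.2 and 26.2 FPKM in R_shCtrl, highest in R_shFosL1. JUNB was at 101 and 107 FPKM in R_shFosL1, against 50.0 and 52.5 FPKM in R_shLSD1 and 115 and 108 FPKM in R_shCtrl, a difference of 1.00 ± 0.051 at the edge of the threshold, which 5 of 11 alternatives kept and which was not called without R_shFosL1 replicate 2 or without R_shLSD1 replicate 1. JUN was at 63.5 and 59.6 FPKM in R_shFosL1, against 85.8 and 83.6 FPKM in R_shLSD1 and 42.3 and 42.6 FPKM in R_shCtrl, and it rose in R_shLSD1 (0.98 ± 0.07, adjusted p = 0.0023), with a difference of -0.46 ± 0.049 that is short of the threshold. FOSL2, the closest relative of FOSL1, differed by -0.30 ± 0.0073, MYC by -0.35 ± 0.25 and CCND1, the G1 cyclin, by -0.22 ± 0.029. Of 19 genes of the LSD1-CoREST complex and its partners, KDM1A and the corepressor CTBP1 were higher and SNAI2 was lower. CTBP1 was at 70.2 and 66.7 FPKM in R_shFosL1, against 24.5 and 28.9 FPKM in R_shLSD1 and 74.6 and 64.6 FPKM in R_shCtrl, lowest in R_shLSD1. SNAI2, a repressor of epithelial genes, was at 0.0717 and 0.5 FPKM in R_shFosL1, against 6.17 and 4.13 FPKM in R_shLSD1 and 1.1 and 0.833 FPKM in R_shCtrl, highest in R_shLSD1. MAPK pathway output genes had 2 of 20 higher and 0 lower, EGR1 (1.64 ± 0.15) and IER3 (1.15 ± 0.072), and their median of 0.039 was below 0 with quantile normalization, with rescaling and without R_shLSD1 replicate 1 (-0.10). Without R_shFosL1 replicate 2 or R_shLSD1 replicate 1, 1 MAPK output gene was lower.

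Iron and ferroptosis genes differed at a few members. Of 14 iron handling genes, FTH1 and HMOX1 were lower in R_shFosL1 and 0 were higher. FTH1, the ferritin heavy chain that stores iron, was at 999 and 1140.4 FPKM in R_shFosL1, against 3921 and 3758 FPKM in R_shLSD1 and 1894 and 1766 FPKM in R_shCtrl. R_shFosL1 lay below the control and R_shLSD1 above it (1.07 ± 0.051, adjusted p = 0.0012). HMOX1, which frees iron from haem, was at 0.39 and 0.249 FPKM in R_shFosL1, against 2.97 and 3.55 FPKM in R_shLSD1 and 1.72 and 1.96 FPKM in R_shCtrl. ACSL4, which loads membranes with the polyunsaturated lipids that ferroptosis oxidises, was at 21.2 and 18.7 FPKM in R_shFosL1, against 95 and 97.4 FPKM in R_shLSD1 and 41.4 and 48.9 FPKM in R_shCtrl, again with R_shCtrl between the hairpins. GCLM, a subunit of the enzyme that starts glutathione synthesis, was at 13 and 12.5 FPKM in R_shFosL1, against 29.6 and 31.4 FPKM in R_shLSD1 and 29.4 and 32.5 FPKM in R_shCtrl, lowest in R_shFosL1, with overlap between the other groups. GPX4, the lipid peroxide reductase, was at 251 and 234 FPKM in R_shFosL1, against 148 and 135 FPKM in R_shLSD1 and 149 and 149 FPKM in R_shCtrl, a difference of 0.78 ± 0.084, and SLC7A11, the cystine transporter, differed by 0.25 ± 0.079. Of 19 ferroptosis defence genes 1 was higher and 2 were lower, and of 18 ferroptosis promotion genes 2 were higher and 3 lower, against 5.01% higher and 4.87% lower over all genes. The higher defence gene, CBS, which makes cystathionine, was not called without R_shFosL1 replicate 1 or without R_shLSD1 replicate 2. Of the lower promotion genes, SAT1 was not called without R_shLSD1 replicate 2 (log2 difference -0.97). The count of lower promotion genes also fell without R_shFosL1 replicate 2 or without R_shLSD1 replicate 1.

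The TGF-beta and BMP response list was split, with 4 of 17 higher and 3 lower in R_shFosL1, against 5.01% and 4.87% of all genes. Beside GDF15, the higher ones were the activin subunits INHBA and INHBE and TGFB1, and the lower ones BMP2, the inhibitory SMAD6 and the decoy receptor BAMBI. With quantile normalization 3 of the list were higher and 5 lower, and with protein-coding rescaling 3 and 4. The counts also moved when some single libraries were left out. INHBE was at 30.0 and 27.9 FPKM in R_shFosL1, against 6.94 and 7.34 FPKM in R_shLSD1 and 36.1 and 41.2 FPKM in R_shCtrl. BAMBI was at 10.0 and 8.59 FPKM in R_shFosL1, against 19.3 and 20.5 FPKM in R_shLSD1 and 3.88 and 4.83 FPKM in R_shCtrl, and it rose in R_shLSD1 (1.97 ± 0.16, adjusted p = 0.0027). MITF, the melanocyte lineage factor, was at 15.6 and 15.8 FPKM in R_shFosL1, against 39.2 and 35.3 FPKM in R_shLSD1 and 26.3 and 23 FPKM in R_shCtrl, lowest in R_shFosL1. ERBB3, a receptor of the neural crest lineage, was at 2.66 and 2.5 FPKM in R_shFosL1, against 7.9 and 10.0 FPKM in R_shLSD1 and 2.99 and 3.78 FPKM in R_shCtrl, highest in R_shLSD1. NDRG1, a hypoxia-induced gene, was at 18.1 and 18.9 FPKM in R_shFosL1, against 70.2 and 73.9 FPKM in R_shLSD1 and 90.5 and 83.7 FPKM in R_shCtrl, lowest in R_shFosL1. The metallothionein MT1X was at 64.7 and 45.2 FPKM in R_shFosL1, against 349.7 and 339 FPKM in R_shLSD1 and 226 and 232 FPKM in R_shCtrl. SQSTM1, the autophagy receptor p62, was at 325 and 330.0 FPKM in R_shFosL1, against 844 and 829 FPKM in R_shLSD1 and 412 and 384 FPKM in R_shCtrl and was the member of 19 lysosome and autophagy genes that was called. SC5D, a sterol desaturase of cholesterol synthesis, was at 30.5 and 30.0 FPKM in R_shFosL1, against 6.28 and 5.98 FPKM in R_shLSD1 and 21.7 and 21.1 FPKM in R_shCtrl. Of 23 lipid synthesis genes 1 was higher and 2 were lower. Without R_shLSD1 replicate 1 the lower count was 1, since the fatty acid elongase ELOVL6 was not called. The lysosome and autophagy count was 2 without R_shFosL1 replicate 1.

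Smaller lists held scattered calls. Over all genes 5.01% were higher and 4.87% lower in R_shFosL1, and 9.42% rose and 12.4% fell in R_shLSD1. Of 24 YAP/TEAD targets, GADD45A was higher and F3, NT5E and the growth factor carrier IGFBP3 (-1.48 ± 0.15) were lower, and 10 rose and 3 fell in R_shLSD1. Of 19 hypoxia-induced genes 2 were higher and 2 lower, with DDIT4, an inhibitor of mTOR signalling, at 100.5 and 97.4 FPKM in R_shFosL1, against 49.8 and 39.1 FPKM in R_shLSD1 and 170.3 and 159 FPKM in R_shCtrl. DDIT4 was not called without R_shLSD1 replicate 2, nor the carbonic anhydrase CA9, 1 of the lower ones, without R_shLSD1 replicate 1. The BCL2 family held opposite members: BBC3 (PUMA), a promoter of cell death, was at 8.28 and 9.92 FPKM in R_shFosL1, against 3.2 and 2.85 FPKM in R_shLSD1 and 13.9 and 8.4 FPKM in R_shCtrl. PMAIP1 (NOXA), which shares that role, was at 39.6 and 35.9 FPKM in R_shFosL1, against 82 and 89.2 FPKM in R_shLSD1 and 53 and 57.1 FPKM in R_shCtrl. BBC3 was lowest in R_shLSD1 and PMAIP1 lowest in R_shFosL1. CDKN2D, an inhibitor of CDK4 and CDK6, was at 21.7 and 18 FPKM in R_shFosL1, against 8.52 and 3.97 FPKM in R_shLSD1 and 13.8 and 11.6 FPKM in R_shCtrl and was the member called among 18 G1 regulators. KRT17, an epithelial keratin, was at 2.89 and 2.44 FPKM in R_shFosL1, against 12.5 and 10.9 FPKM in R_shLSD1 and 2.28 and 3.72 FPKM in R_shCtrl. OAS3, a sensor of double-stranded RNA, was at 18.2 and 22.3 FPKM in R_shFosL1, against 8.33 and 5.23 FPKM in R_shLSD1 and 15.9 and 17.9 FPKM in R_shCtrl, the call among 16 interferon-stimulated genes. KRT17 was highest in R_shLSD1, and CDKN2D and OAS3 were lowest there. The interferon count was 2 without R_shFosL1 replicate 1. The contractile protein gene TAGLN was at 83.2 and 91.8 FPKM in R_shFosL1, against 35.2 and 36.6 FPKM in R_shLSD1 and 37.2 and 31.1 FPKM in R_shCtrl, highest in R_shFosL1.

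In several lists no member reached the threshold. With 5.01% of all genes higher and 4.87% lower, lists of this size would hold few calls, and their absence is not read as a result. Of 22 mitosis and G2/M genes, 23 of glycolysis and the pentose phosphate pathway, 24 of nuclear-encoded oxidative phosphorylation, 16 of MHC class I presentation and 18 lysine acyltransferases and deacylases, 0 were called in either direction. Their medians were 0.32, -0.005, 0.094, -0.12 and 0.30, and that of oxidative phosphorylation changed sign with quantile normalization or rescaling. Of the mitosis genes 21 of 22 differences were above 0, in a comparison whose median over all genes was itself above 0. From 20 FPKM up, the medians of all genes by level were 0.12 to 0.16. With quantile normalization the mitosis median was 0.20, against 0.0175 over all genes. In R_shLSD1 relative to R_shCtrl 8 of 22 fell and 0 rose, against 12.4% and 9.42% of all genes. Without R_shFosL1 replicate 2 or R_shLSD1 replicate 2, 1 lysine acyltransferase or deacylase was higher. Of 26 DNA replication genes, the thymidylate synthase TYMS was called, at 149.9 and 151 FPKM in R_shFosL1, against 63.5 and 58.8 FPKM in R_shLSD1 and 108 and 105 FPKM in R_shCtrl. LDHA, the lactate dehydrogenase subunit, was at 1204 and 1219 FPKM in R_shFosL1, against 845 and 871 FPKM in R_shLSD1 and 1082 and 1097 FPKM in R_shCtrl, a difference of 0.50 ± 0.023. Of 28 histone lysine methyltransferases and demethylases, KDM6B was the member called (1.41 ± 0.022). Over all genes the median was 0.071, or 0.0175 with quantile normalization and -0.0197 with protein-coding rescaling. Among the 28 of this list, 27 differences were above 0. Their median was 0.39, or 0.34 with quantile normalization and 0.30 with that rescaling. Without R_shFosL1 replicate 1 or 2 the number called was 2, and without R_shLSD1 replicate 2 it was 3. The DNA replication count was 2 without R_shFosL1 replicate 1 or R_shLSD1 replicate 1.

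Some of the widest differences moved with features of the transcripts. Of 761 pseudogenes compared, 18.7% were higher in R_shFosL1 and 5.26% lower, against 3.63% and 4.60% of 11777 protein-coding genes and 8.42% and 6.24% of 1650 long noncoding RNAs. TMSB4XP6, a pseudogene, was at 559 and 1015 FPKM in R_shFosL1, against 0 and 0 FPKM in R_shLSD1 and 0 and 368 FPKM in R_shCtrl. The small RNA BCYRN1, chosen like TMSB4XP6 after its values were seen, was listed at 0 in R_shFosL1, against 606 and 738 FPKM in R_shLSD1 and 85.8 and 302 FPKM in R_shCtrl. Among the 10 protein-coding genes with the widest gaps on the high side were RPS27AP5, whose name marks it as a copy of a ribosomal protein gene, at 154 and 117 FPKM in R_shFosL1, against 11.9 and 13.9 FPKM in R_shLSD1 and 11.2 and 11.1 FPKM in R_shCtrl. Another was the identifier ENSG00000285508, listed under MKKS, the symbol of a chaperonin-like protein of ciliary biology. A symbol can name several identifiers, and no other MKKS entry is described here. ENSG00000285508 was at 38.1 and 36.8 FPKM in R_shFosL1, against 3.8 and 1.05 FPKM in R_shLSD1 and 4.16 and 3.13 FPKM in R_shCtrl. The identifier ENSG00000259316 (4.38 ± 1.47) and the read-through gene MICOS10-NBL1 (2.76 ± 0.27) were also among them, and ENSG00000269711 and ENSG00000267228 were at means of 35 and 24.6 FPKM in R_shFosL1 and listed at 0 in R_shLSD1. In RPS27AP5 and this MKKS entry the R_shLSD1 and R_shCtrl libraries, which share a table, were all low. The R_shFosL1 libraries, from the other table, were high. Reads of such copies and overlapping genes can be divided in more than one way, the use of strand in counting is not stated, and these values are uncertain.

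Mitochondrially encoded mRNAs, which code for subunits of the respiratory chain and ATP synthase, differed most where they were shortest. Of 13 mRNAs, 3 were lower in R_shFosL1 and 0 higher, against 4.87% and 5.01% of all genes. Their median was -0.53, against 0.071 over all genes. With quantile normalization 3 were lower and 1 higher. MT-ATP8, MT-ND4L and MT-ND3, the 3 called, are the 3 shortest, at 207, 297 and 346 bases. MT-ATP8 was at 2139 and 2118 FPKM in R_shFosL1, against 18404 and 20939 FPKM in R_shLSD1 and 17449.8 and 20168 FPKM in R_shCtrl, a difference of -3.20 ± 0.093. The long MT-CO1 (1542 bases) averaged 9408 FPKM in R_shFosL1, against 8793 FPKM in R_shLSD1. Of 16 protein-coding genes with transcripts under 500 bases, 7 were lower in R_shFosL1 and 0 higher (43.8% lower, against 4.24% of those from 2000 to 4000 bases). MT-ATP8, MT-ND4L and MT-ND3 are among these 7, so the count is not separate from them. The R_shLSD1 and R_shCtrl libraries overlapped for MT-ATP8, and the part of the table or of library making in these differences was not tested.

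**Figure D5:**
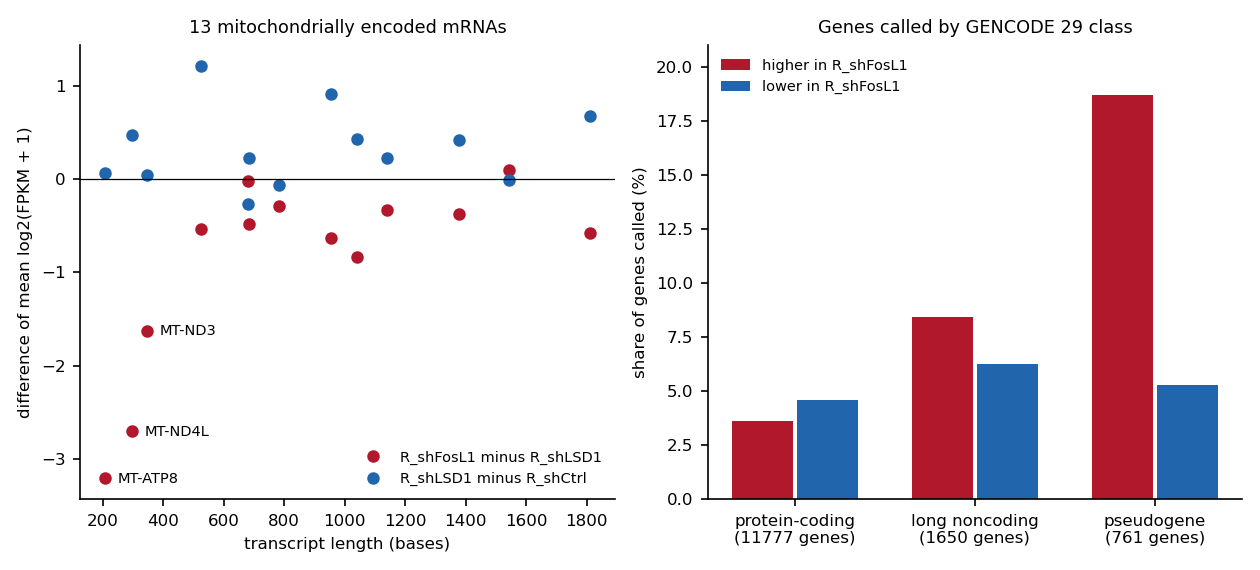
Left, difference of mean log2(FPKM + 1) for the 13 mitochondrially encoded mRNAs against transcript length in bases, for R_shFosL1 minus R_shLSD1 and for R_shLSD1 minus R_shCtrl. Right, share of genes called higher or lower in R_shFosL1 by gene class. The 3 shortest mRNAs lie below -1.5 in the first difference and near or above 0 in the second, and 18.7% of pseudogenes were higher in R_shFosL1.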

How the data were processed

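Gene expression was deposited by the authors as FPKM values per gene, and the submitters' processing notes name CASAVA 1.4, HISAT2 2.1.0, Cufflinks 2.2.1 and the hg38 build, without saying what each was used for. Libraries of R_shFosL1 came from one table and those of R_shLSD1 and R_shCtrl from another, each normalized on its own. Per the labels' protocols a directional library kit and an rRNA depletion were used, not tied to particular samples. FPKM values are not counts, so no count test was run, and depth is unknown: over trial depths, at best 28.7% to 39.1% of low values came within 0.1 of a whole read, against a median of 17.4% to 20.8%. No counting interval is given.

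The tables were joined by gene identifier. Rows without a gene identifier (4940 blank rows in the table of R_shLSD1 and R_shCtrl) and 4 genes whose status was marked as failed were left out. Of the identifiers 58520 matched GENCODE 29. Values were taken as log2(FPKM+1), which understates changes of low genes. A gene was compared when 2 or more of the 4 libraries reached 1 FPKM. R_shLSD1 was compared with R_shCtrl with limma 3.58.1 (R 4.3.3, trend and robust moderation, Benjamini-Hochberg adjustment). A run on simulated data drew independent normal values, as the model assumes. It therefore cannot show whether calls on these few libraries hold. Other work used Python 3.11.15 with pandas 2.3.3 and numpy 2.4.6. Promoter sequences came from RefSeq (GRCh38.p14).

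Genes named by rule were 16 of prior interest, the 10 widest gaps between the groups in each direction among called protein-coding genes above 0 in all 4 libraries and at 5 FPKM or more on average in the higher group, the 3 highest in each direction that were at 0 in one group, and up to 4 called members of each of 45 lists. Other genes named were chosen after their values were seen. The comparison, its members and the lists were chosen with earlier results of these data known. Alternatives were other pseudocounts, filters, scalings and thresholds, a replicate block and leaving out each library. Results for some items are not reported here.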

Additional observations from a re-analysis of the deposited data

How the results depend on the processing

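Between R_shFosL1 and R_shLSD1, 1411 genes were called, and the count moved past 1.5 times with a pseudocount of 0.1 (2169, with 1080 higher and 1089 lower), with a minimum difference of 2 (176, with 88 in each direction) and where the gap between libraries had to reach 1 (776, with 388 in each direction). With a minimum of 5 FPKM, 445 were lower. Leaving out 1 library gave 1576 to 1606. Of 104 called genes named by rule, 81 kept their call in all 11 alternatives, and 0 changed direction. JUNB, LDHC, DNAJC3 and KRT86 kept it in 5. For R_shLSD1 over R_shCtrl, limma called 3119 genes. It called 1609 (702 higher and 907 lower) with genes above 0 in any library kept and 1842 (870 and 972) without trend and robust moderation. Leaving out 1 library gave 0 to 912 in all, 0 to 347 higher and 0 to 565 lower. The replicate block gave 3214 calls, but the labels' numbers do not pair the libraries (correlation of deviations 0.0151). Depth is unknown, but genes below 2 FPKM varied by 0.28 between libraries on the log2 scale and those at 100 FPKM or more by 0.051.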
